A study of Homo sapiens with 6 samples.

Results

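The 10 genes followed here, which encode proteins that hepatocytes secrete into blood, were measured in SW480, a human colorectal adenocarcinoma cell line: AFP, APOB, ALB, APOA1, APOA2, TF, FGA, FGB, FGG and SERPINA1. They were 10 of the 56303 genes in the count table. AFP and APOB were picked because their shMORC2 counts lay among those furthest below shCtrl, and the others were added as liver secreted proteins or as their neighbours in the genome. The shMORC2 against shCtrl difference of these 10 genes is therefore what chose them, and it is only described here. Calls of the 10 from the fit over all genes are given without being read as a test of it. Tests were kept for genes beside them on the chromosome and for other genes of the same pathways.

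The liver makes most plasma proteins. Albumin and alpha-fetoprotein carry small molecules and fatty acids, and alpha-fetoprotein is the fetal counterpart of albumin that the yolk sac and fetal liver make and the adult liver shuts down. Apolipoproteins give lipoprotein particles their shape, transferrin carries iron, the fibrinogen chains join into the clotting protein fibrinogen, and alpha-1-antitrypsin, the product of SERPINA1, inhibits neutrophil elastase. Hepatocyte transcription factors of the HNF4, FOXA and C/EBP families, among others, are known to drive these genes, several of which are also active in intestinal epithelium.

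One group carried a nonsilencing control hairpin (shCtrl) and the other a hairpin against MORC2 (shMORC2), each with 3 libraries. The labels give the genotypes as WT and MORC2 knockdown, but both groups carried a lentiviral hairpin, and the study's methods describe stable clonal lines selected with puromycin in RPMI-1640 with serum. A hairpin and the clone that carried it cannot be told apart. The study calls its libraries replicate experiments without saying what was repeated, so p-values measure only the spread between these libraries, which may be technical. Library totals were 42092664 to 43434425 counts, and mitochondrial genes took 7.04% to 8.90% of them. MORC2 was present at 46.1, 46.4 and 48.8 CPM (counts scaled to the library size after TMM) in shCtrl and at 35.0, 29.3 and 27.2 CPM in shMORC2. It fell, with no overlap between the groups, by 0.63 in log2 units (SE 0.10, edgeR quasi-likelihood test, Benjamini-Hochberg adjusted p = 0.000216).

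The 10 genes differed in direction. In CPM, 8 of the 10 lay lower in all 3 shMORC2 libraries than in any shCtrl library, and 2, FGA and SERPINA1, lay higher in all 3. Over the 21005 genes tested, 25.1% lay lower and 25.1% higher without overlap. edgeR called 8 of the 10 lower and 2 higher, also with the replicate block, against 39.5% called among all genes tested (19.6% lower and 19.9% higher, and 49.0% in either direction with the block), and nothing is read from these counts because the genes were chosen on this contrast. A call is an adjusted p under 0.05. All 10 passed the filter on low counts, but 7 of them had fewer than 10 counts in at least 1 shMORC2 library and passed through their shCtrl counts. In all, 7 were called with a fitted log2 fold change of -2 or lower, as were 0.462% of all genes tested. In bulk RNA, fewer cells that use a gene and less RNA per cell cannot be told apart.

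**Figure D1:**
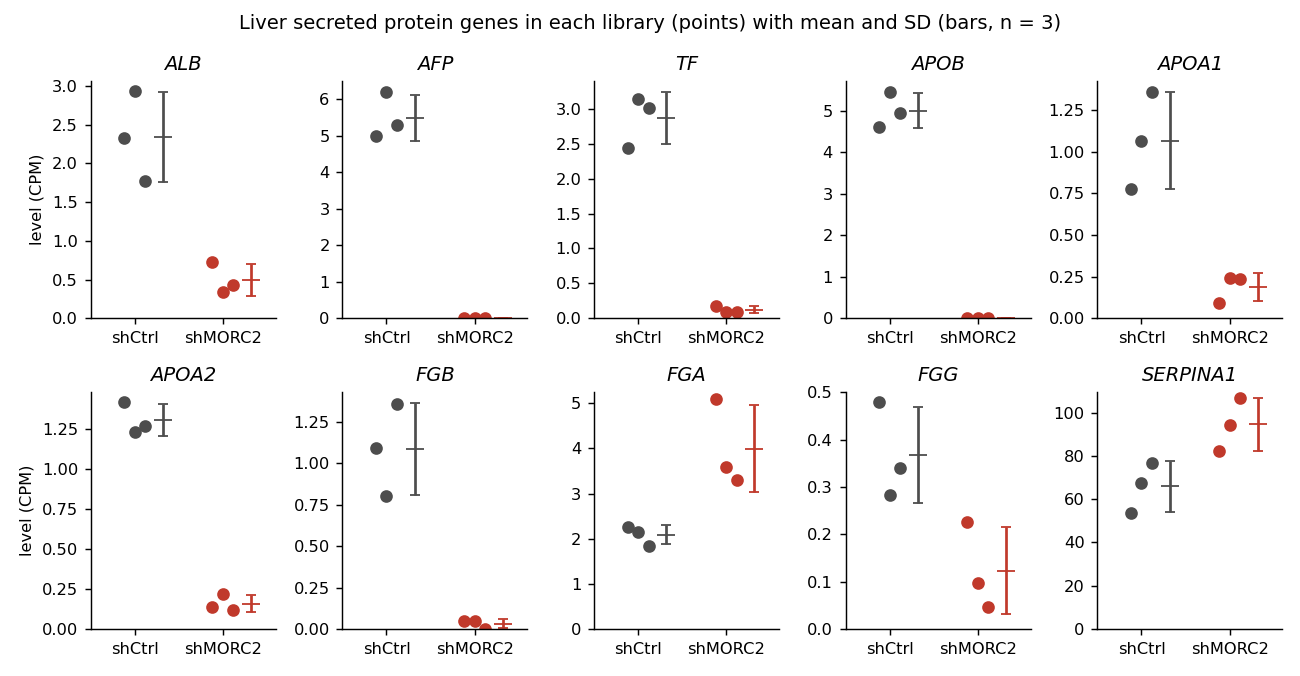
Each panel shows 1 of the 10 genes on its own linear CPM axis from 0, with 1 point per library, grey for shCtrl and red for shMORC2, and a bar for the mean and SD (n = 3). The shMORC2 points of AFP and APOB sit at 0, those of ALB, APOA1, APOA2, TF, FGB and FGG lie below every shCtrl point, and those of FGA and SERPINA1 lie above.

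AFP, the fetal serum carrier, lies at chr4:73431138-73456174 on the plus strand of GRCh38. The shCtrl libraries held 219, 262 and 218 AFP counts, and each shMORC2 library 0. No read was counted over this gene in any of the 3 shMORC2 libraries. Its shCtrl mean was 5.50 ± 0.623 CPM (SD, n = 3), and with 3 counts per library as the floor it was at least 78.5-fold lower in shMORC2. Pooled over libraries, counting error allowed up to 0.524% of the shCtrl level to remain (exact binomial limit, which takes each count as independent). Intervals and floors here cover counting error only. Of all counts between 1 and 10, 68.8% were even numbers, so counts may not be independent. The intervals and floors given here may then be too tight.

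ALB, the gene for albumin, ends 9725 bases before AFP begins on the same strand (chr4:73397114-73421412). It had 102, 124 and 73 counts in shCtrl and 32, 14 and 18 in shMORC2. The groups did not overlap, but ALB remained counted in every shMORC2 library. It averaged 2.35 ± 0.579 CPM in shCtrl and 0.494 ± 0.202 CPM in shMORC2, 4.75-fold lower, with 21.1% of the shCtrl level left. Per length of transcript, in RPKM (reads scaled by gene length and library total), AFP stood at 2.23, 2.19 and 3.09 times ALB in the shCtrl libraries and at 0 times ALB in the shMORC2 libraries. The order of the neighbouring genes was thus opposite in the 2 groups, AFP above ALB in every shCtrl library and below it in every shMORC2 library.

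The promoters of AFP, ALB, FGB, FGA and SERPINA1 are printed because they share a motif known from the promoters of liver genes, GTTAAT, while these 5 genes covered the whole range seen, from AFP at 0 to FGA higher. Each window runs from 250 bases before to 50 bases after a start site (RefSeq, GRCh38.p14), is written 5′ to 3′ on the strand of the gene, and has GTTAAT, or ATTAAC where the site lies on the opposite strand, in capitals.
AFP: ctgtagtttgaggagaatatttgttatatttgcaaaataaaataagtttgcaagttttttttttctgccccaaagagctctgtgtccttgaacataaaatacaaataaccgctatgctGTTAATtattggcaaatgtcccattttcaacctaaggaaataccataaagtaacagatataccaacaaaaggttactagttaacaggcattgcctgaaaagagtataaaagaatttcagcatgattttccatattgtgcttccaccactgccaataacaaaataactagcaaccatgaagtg
ALB: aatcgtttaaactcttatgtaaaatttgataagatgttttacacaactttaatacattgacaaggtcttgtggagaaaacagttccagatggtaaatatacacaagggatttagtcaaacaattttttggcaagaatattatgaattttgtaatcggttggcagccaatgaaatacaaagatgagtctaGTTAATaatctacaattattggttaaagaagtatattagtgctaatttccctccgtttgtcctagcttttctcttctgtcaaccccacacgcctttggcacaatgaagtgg
FGB: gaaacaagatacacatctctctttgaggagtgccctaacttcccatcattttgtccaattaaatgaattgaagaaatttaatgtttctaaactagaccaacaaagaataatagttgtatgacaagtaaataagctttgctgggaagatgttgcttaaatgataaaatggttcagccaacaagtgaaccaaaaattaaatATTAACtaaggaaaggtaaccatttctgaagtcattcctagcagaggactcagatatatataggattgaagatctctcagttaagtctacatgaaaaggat
FGA: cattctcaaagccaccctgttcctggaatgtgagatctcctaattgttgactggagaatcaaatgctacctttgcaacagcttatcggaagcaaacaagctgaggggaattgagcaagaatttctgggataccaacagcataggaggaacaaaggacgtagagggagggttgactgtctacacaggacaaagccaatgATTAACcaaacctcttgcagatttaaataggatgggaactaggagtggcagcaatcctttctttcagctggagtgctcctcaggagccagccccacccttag
SERPINA1: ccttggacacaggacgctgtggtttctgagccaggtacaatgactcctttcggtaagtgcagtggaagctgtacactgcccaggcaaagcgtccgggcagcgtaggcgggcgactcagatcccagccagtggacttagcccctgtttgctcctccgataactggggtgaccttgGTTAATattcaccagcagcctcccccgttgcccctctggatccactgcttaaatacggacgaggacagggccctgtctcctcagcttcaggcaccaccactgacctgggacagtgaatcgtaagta
The windows lie at chr4:73435971-73436270 (plus strand) for AFP, chr4:73404037-73404336 (plus) for ALB, chr4:154562730-154563029 (plus) for FGB, chr4:154590693-154590992 (minus) for FGA and chr14:94388553-94388852 (minus) for SERPINA1.

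RefSeq entries were matched for 8 of the 10 genes by symbol, with 11 windows between them (APOB and APOA1 were not matched). GTTAAT was found on either strand in 6 of the 11 windows, from 5 of the 8 genes, against 6.88% of 35116 promoter windows of the same length. The 6 include both FGB windows, which hold the same site, while the other SERPINA1 window had none. It began at -132 from the start site in AFP, at -61 in ALB, at -76 in the SERPINA1 window shown, and, on the opposite strand, at -51 in the FGB window shown and -52 in FGA. FGB has another RefSeq start site, from which the same site begins at -82, so that its distance depends on the start chosen. FGB and FGA held it in the same orientation, and their counts lay on opposite sides of shCtrl. A C/EBP motif, TTGCNNAA, was found in 6 of the 11 windows, from AFP, ALB, FGA, FGB (both windows) and TF, and in 10.5% of all windows. A FOXA motif, TGTTTAC, was found in APOA2 (3.42% of all windows), a TATA box, TATAAA, in AFP at -29 (11.5%), and an HNF4 motif, CAAAGTCCA, in 0 of the 8 genes (0.384%). None of these matches overlapped another in the windows of the 8 genes. A match is a run of letters and was not tested as a bound site.

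APOB encodes the large structural protein of chylomicrons and low-density lipoprotein and lies at chr2:21001429-21044073 on the minus strand. Its counts were 202, 230 and 203 in the shCtrl libraries, with 0 in all 3 of shMORC2. As for AFP, no shMORC2 library held a count. The shCtrl mean was 4.99 ± 0.418 CPM (n = 3), and the shMORC2 level was at least 71.3-fold lower at the same floor. Because the mRNA is very long, its shCtrl level per length was small, at 0.337 RPKM against 1.69 RPKM for AFP, although both genes had similar counts. AC010872.1 overlaps APOB on the opposite strand and held 1, 2 and 3 counts in shCtrl against 0 in shMORC2. The kit was stranded but the strand setting of the counting is not given in the sources used here, so these few reads cannot be told from APOB reads.

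APOA1, the main protein of high-density lipoprotein, lies at chr11:116835751-116837950 on the minus strand. It had 34, 45 and 56 counts in shCtrl and 4, 10 and 10 in shMORC2. Its means were 1.07 ± 0.293 and 0.188 ± 0.0851 CPM, 5.66-fold lower in shMORC2. APOA2, another structural protein of the same particles, lies on another chromosome, at chr1:161222292-161223631 (minus). It had 62, 52 and 52 counts in shCtrl and 6, 9 and 5 in shMORC2. Its means were 1.30 ± 0.0983 and 0.156 ± 0.0526 CPM, 8.34-fold lower. Both high-density lipoprotein genes thus kept a low count in every shMORC2 library where APOB had none.

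TF, the gene for the iron carrier transferrin, lies at chr3:133745956-133779006 on the plus strand. It had 107, 133 and 124 counts in shCtrl and 8, 4 and 4 in shMORC2. The shMORC2 counts were few in each library and 4.31% of the shCtrl CPM was left. The means were 2.87 ± 0.374 and 0.124 ± 0.0493 CPM, 23.2-fold lower.

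Fibrinogen is built from alpha, beta and gamma chains in equal numbers, and their 3 genes sit side by side on chromosome 4. In order along the chromosome these are FGB (chr4:154562956-154571086, plus), FGA (chr4:154583126-154590766, minus) and FGG (chr4:154604134-154612967, minus), with 12039 bases between FGB and FGA and 13367 between FGA and FGG. FGB, the beta chain, had 48, 34 and 56 counts in shCtrl and 2, 2 and 0 in shMORC2. Each of these shMORC2 counts lay under the floor of 3. As counted, 2.86% of the shCtrl level was left (95% exact interval 0.771% to 7.51%), a 35.0-fold difference of means. The log2 ratio of means was -5.13, and -4.54 without shMORC2 replicate 3, the library at 0. It was -3.92 from paired libraries with counts below 3 raised to 3. FGA, the alpha chain, went the other way, with 99, 91 and 76 counts in shCtrl and 226, 149 and 141 in shMORC2. Every shMORC2 library lay above every shCtrl library, and the means were 2.09 ± 0.213 and 3.995 ± 0.962 CPM, 1.92-fold higher. FGG, the gamma chain, had 21, 12 and 14 counts in shCtrl and 10, 4 and 2 in shMORC2, with means of 0.368 ± 0.101 and 0.123 ± 0.0922 CPM and 33.4% left (interval 17.8% to 60.5%). Its log2 ratio of means was -1.58, and -2.36 without shMORC2 replicate 1. The FGG counts were the lowest of the 10 genes in shCtrl. Its call as lower, which is not read as a test, held under 5 of 13 alternative settings. It failed among others with DESeq2 and without any 1 of shCtrl replicates 1, 2 or 3 or shMORC2 replicates 2 or 3.

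The proportions of the chains changed with these counts. FGA stood at 1.41, 1.83 and 0.929 times FGB per length in the shCtrl libraries, and at 77.4 and 51.0 times in shMORC2 replicates 1 and 2. FGB had 2 counts in each of these 2 libraries, under the floor of 3, so the size of the ratios is uncertain. No ratio exists for shMORC2 replicate 3, where FGB had 0 counts. FGA over FGG was 4.29, 6.90 and 4.94 in shCtrl and 20.6, 33.9 and 64.2 in shMORC2. FGB over FGG was 3.04, 3.77 and 5.32 in shCtrl and 0.266, 0.665 and 0 in shMORC2, again with FGB under the floor. In shCtrl the alpha and beta chain genes were within 2 times of each other in every library, and in shMORC2 the alpha chain gene exceeded both others in every library.

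SERPINA1 (chr14:94376747-94390693, minus) was by far the most counted of the 10 genes. It had 2346, 2851 and 3165 counts in shCtrl and 3652, 3932 and 4559 in shMORC2. The groups did not overlap, and the means were 66.0 ± 11.8 and 94.6 ± 12.4 CPM, 1.43-fold higher in shMORC2.

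Levels of different genes can be compared only per length. In shCtrl the order of mean RPKM was SERPINA1 (13.5), AFP (1.69), APOA2 (1.38), APOA1 (0.748), ALB (0.697), FGA (0.529), FGB (0.401), APOB (0.337), TF (0.335) and FGG (0.103). The libraries of SERPINA1, AFP and APOA2 each lay clear of the next gene in that order, as did those of TF above FGG, while the other neighbouring pairs, from APOA1 to TF, overlapped. In shMORC2 the order was SERPINA1 (19.2), FGA (1.01), APOA2 (0.164), ALB (0.147), APOA1 (0.131), FGG (0.0343), TF (0.0145), FGB (0.0115), and AFP and APOB at 0. SERPINA1 and FGA each lay clear of the next gene, and so did APOA1 above FGG, while the other neighbouring pairs overlapped or were tied at 0. AFP went from the second place to the last, which it shared with APOB, and FGA from the sixth to the second.

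Genes beside the 10 on the chromosome moved in both directions. Within 250 kb there were 99 other genes, 27 of them without a count anywhere, and 42 passed the filter. Of these 42, 10 rose and 8 fell (edgeR, adjusted p under 0.05), with a median log2 fold change of 0.07, beside 19.9% higher, 19.6% lower and a median of -0.01 over all 21005 genes. Without shCtrl replicate 2 the number that fell was 5, and it was 3 on leaving out shCtrl replicate 3 or replicate 2 or 3 of shMORC2. Only APOA1-AS, an antisense RNA, changed by 1 or more in size on the log2 scale, and it passed the filter through its shCtrl counts.

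**Figure D2:**
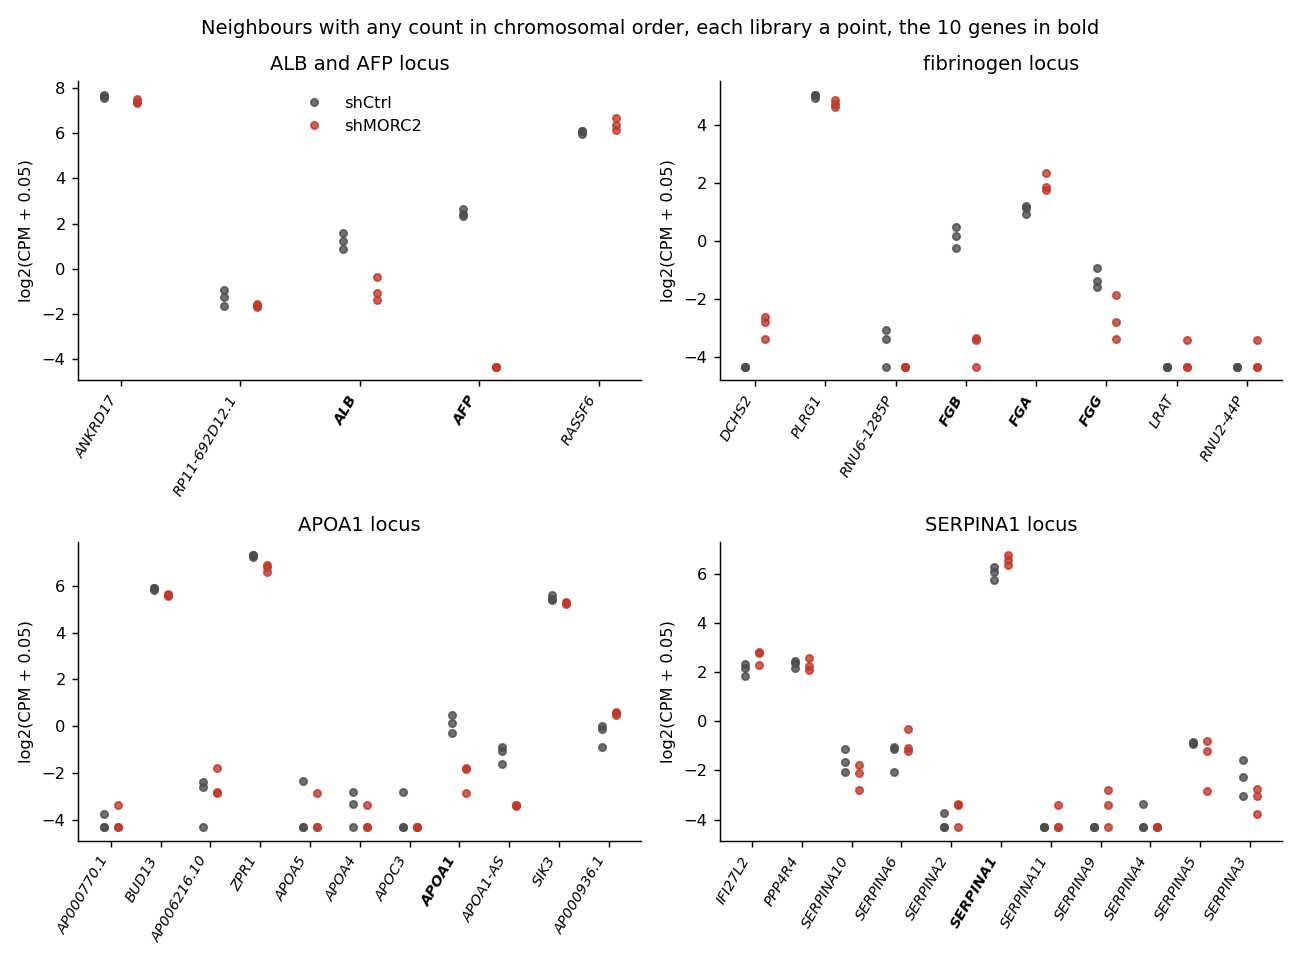
Genes with any count are drawn in chromosomal order at 4 of the loci, with the names of the 10 genes in bold, and each point is log2(CPM + 0.05) of 1 library, grey for shCtrl and red for shMORC2. The shMORC2 points of AFP lie at the bottom, where the level is 0, those of ALB between AFP and the shCtrl points, and FGA is the fibrinogen gene whose red points stand above the grey.

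Around AFP and ALB, the albumin family gene AFM, 25509 bases beyond AFP, was at 0 in all 6 libraries. The nearest expressed protein-coding genes, named here for their position after the values were seen, changed little. ANKRD17, on the ALB side, fell by 0.22 (SE 0.08, edgeR adjusted p = 0.0331), and RASSF6, 115376 bases beyond AFP, rose by 0.36 (SE 0.11, adjusted p = 0.0206). Beside the fibrinogen genes, PLRG1, a splicing factor gene 12521 bases from FGB, fell by 0.25 (SE 0.09, adjusted p = 0.0325), and on the FGG side LRAT had 2 counts in 1 shMORC2 library and 0 elsewhere. The fibrinogen genes therefore had a single tested neighbour.

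APOA1 belongs to a cluster of apolipoprotein genes whose other members were close to 0. APOC3, 2679 bases away, had 4, 0 and 0 counts in shCtrl against 0 in shMORC2. APOA4 had 4, 0 and 2 against 0, 0 and 2, and APOA5 had 0, 0 and 6 against 4, 0 and 0. These counts allow no comparison. APOA1-AS, which overlaps APOA1 on the opposite strand, had 12, 18 and 20 counts in shCtrl against 2, 2 and 2 in shMORC2. It fell by 3.001 (SE 0.55, edgeR adjusted p = 0.000862), beside the log2 ratio of -2.50 of APOA1. Without the strand setting the reads of the pair cannot be told apart. APOA1-AS also passed the filter on low counts through its shCtrl counts, so its fall is not read as a test. SIK3, a kinase gene on the other side, had a log2 fold difference of -0.21 (SE 0.08, adjusted p = 0.0631, and 0.0139 in the blocked fit). ZPR1, a zinc finger protein gene, fell by 0.49 (SE 0.08, adjusted p = 0.000540) and BUD13, a splicing factor gene, by 0.25 (SE 0.07, adjusted p = 0.0163).

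Beside APOA2, 23 of 34 neighbours were tested, of which 7 rose and 1 fell, a share called of 34.8% beside 39.5% over all genes. The nearest tested neighbour of APOA2, TOMM40L, was not called and had a log2 fold difference of 0.20 (SE 0.12, edgeR adjusted p = 0.193). Beside APOB the single tested neighbour was LDAH, a lipid droplet protein gene, at 0.03 (SE 0.11, adjusted p = 0.862). Beside TF, SRPRB, a subunit of the receptor that docks ribosomes to the endoplasmic reticulum, fell by 0.44 (SE 0.10, adjusted p = 0.00312), and TFP1, a transferrin pseudogene whose span in the table runs into TF on the same strand, had 6, 15 and 20 counts in shCtrl and 7, 8 and 8 in shMORC2. Reads could be split between TF and this near copy.

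SERPINA1 lies in a cluster of related serpin genes that were sparsely counted. SERPINA10, an inhibitor of clotting factors, had a log2 fold difference of -0.75 (SE 0.50, edgeR adjusted p = 0.259), SERPINA6, the cortisol carrier, 0.58 (SE 0.42, adjusted p = 0.298), and SERPINA5, the protein C inhibitor, -0.56 (SE 0.48, adjusted p = 0.378). SERPINA3, alpha-1-antichymotrypsin, had 7, 12 and 3 counts in shCtrl and 1, 4 and 3 in shMORC2. SERPINA2, a related copy next to SERPINA1, had 0, 0 and 1 against 2, 0 and 2. None of these serpin genes was called.

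Few genes of this abundance went to 0. Of 14239 genes averaging 100 or more shCtrl counts, 4 (0.0281%) had at most 3 counts in every shMORC2 library: AFP, APOB and the RNA pseudogenes RN7SKP255 and RN7SKP203. In the opposite direction, 1 of 14374 genes (0.00696%) did so, DKK4, a secreted Wnt inhibitor gene with 2, 0 and 2 counts in shCtrl and 137, 148 and 123 in shMORC2. These counts restate how AFP and APOB were chosen. The distances that follow use the same values, so nothing is read from how near AFP and APOB lie to each other. By Euclidean distance of log2(CPM + 0.5) over the 6 libraries, the gene nearest to AFP was APOB, at 0.22, and the gene nearest to APOB was AFP. TF came next for both, at 1.56 from AFP and 1.36 from APOB. The remaining nearest genes were RN7SKP255 (1.65 and 1.58), RN7SKP203 (1.97 and 2.06) and DGKB, a diacylglycerol kinase gene with 134, 116 and 121 counts in shCtrl and 18, 22 and 18 in shMORC2 (2.16 and 2.02). RN7SKP255, with 125, 128 and 513 shCtrl counts, and RN7SKP203, with 257, 222 and 893, were both highest in shCtrl replicate 3, which neither AFP nor APOB showed.

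**Figure D3:**
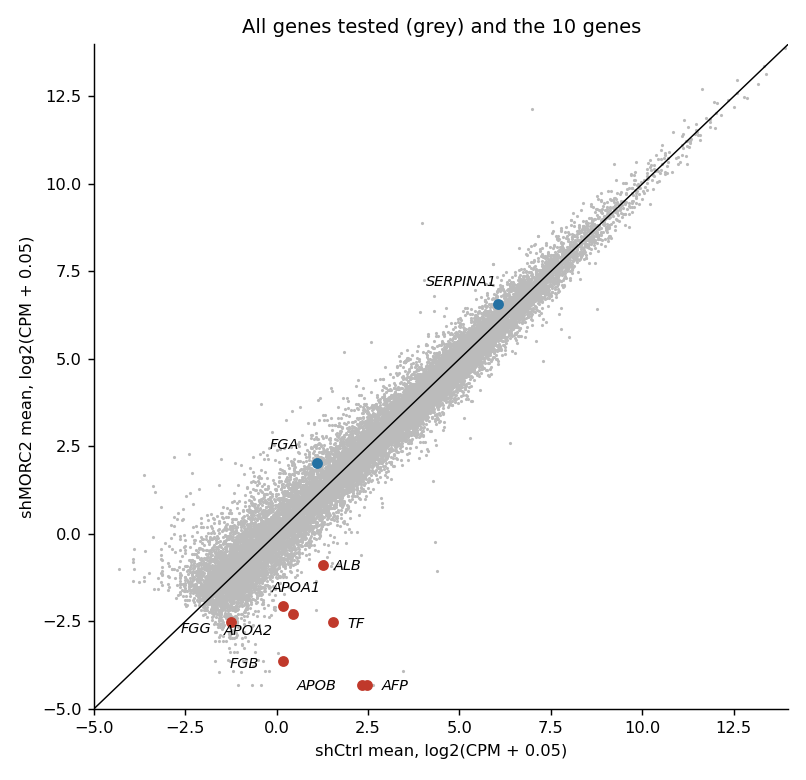
Each grey point is 1 of the 21005 genes tested, with the mean log2(CPM + 0.05) of 3 shCtrl libraries on the horizontal axis and of 3 shMORC2 libraries on the vertical axis. The line marks equal levels, red and blue points mark the genes lower and higher in shMORC2, and AFP and APOB lie at the bottom edge, where the shMORC2 mean is 0.

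The other liver secreted proteins, 94 genes in 4 lists, moved in both directions. Of the 45 tested, 9 (20.0%) rose and 11 (24.4%) fell (edgeR, adjusted p under 0.05). These shares were close to the 19.9% and 19.6% over all genes. The median log2 fold change was -0.20 against -0.01 over all genes, and 20 of the 94 had at most 3 counts in every library. Some called genes passed the filter through the group where they were higher. These were AMBP, ITIH2, VTN, AGT and MASP1 through shCtrl, and CFI and PON1 through shMORC2. Among the 74 with more than 3 counts in any library, 7 had more than 3 counts in a shCtrl library and 0 in every shMORC2 library, and 1 the reverse. Those shares over 28994 genes were 1.89% and 1.46%. The 7, named after their counts were seen, were TTR, HP, ORM1, MBL2, GC, CPB2 and APOC3. TTR, the thyroxine and retinol carrier transthyretin, had 11, 14 and 4 shCtrl counts against 0 in shMORC2, and was too low to be tested.

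**Figure D4:**
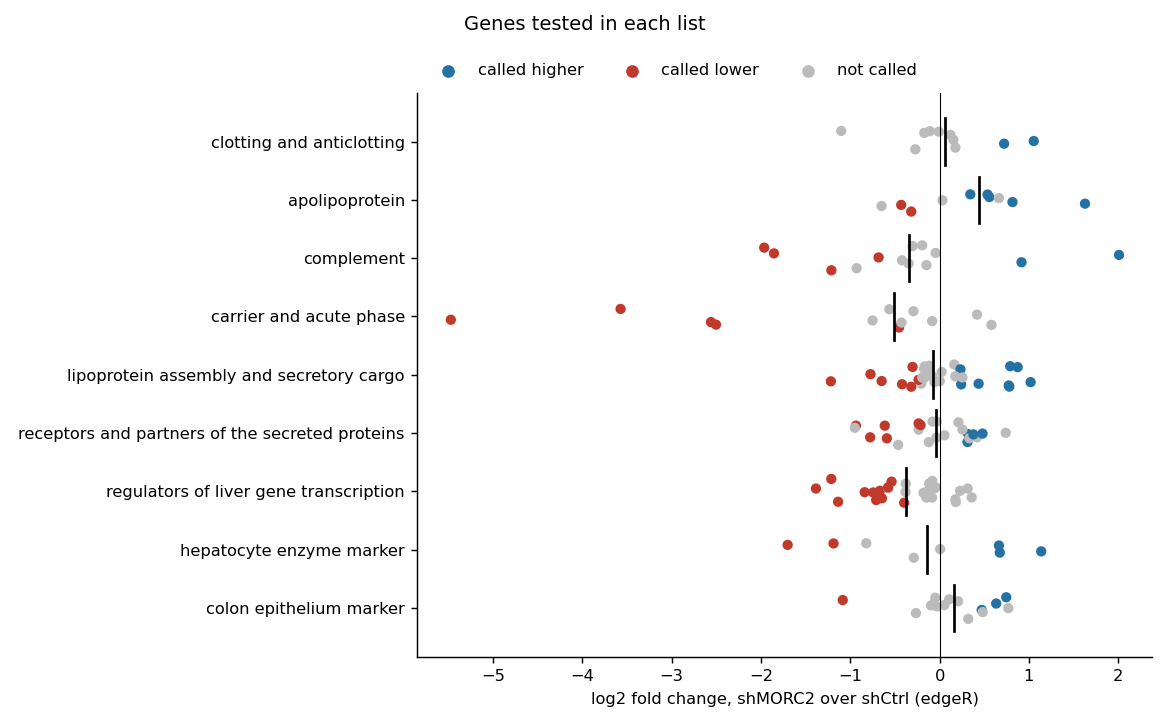
Each point is 1 tested gene of a list, at its fitted edgeR log2 fold change of shMORC2 over shCtrl, coloured where it was called higher or lower, and the bar is the median of the list. Carrier and acute phase genes reach furthest to the left, where the point of ITIH2 depends on the prior count, and no regulator of liver genes was called higher.

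Of 20 clotting genes outside the fibrinogen locus, 10 were tested, of which 2 rose and 0 fell with edgeR and with DESeq2. The edgeR shares were 20.0% higher and 0% lower, beside 19.9% and 19.6% over all genes. In edgeR, 1 was lower at an unadjusted p under 0.05, and 1 was called lower with the replicate block or without shMORC2 replicate 1. PROS1, the cofactor protein S, had 452, 441 and 460 counts in shCtrl and 991, 934 and 915 in shMORC2. It rose from 10.6 to 22.1 CPM, by 1.05 in log2 units (SE 0.09, edgeR adjusted p = 2.3e-06). F10, coagulation factor X, rose by 0.72 (SE 0.12, adjusted p = 0.000358). Among 18 further apolipoproteins and lipoprotein enzymes, 10 were tested, of which 5 rose and 2 fell, with a median log2 fold change of 0.44. Leaving out any 1 library left 0 or 1 that fell. APOE, the remnant particle ligand, rose from 43.3 ± 4.22 to 76.2 ± 11.5 CPM, by 0.82 (SE 0.11, adjusted p = 8.6e-05), while APOB, APOA1 and APOA2 lay lower. APOC1 rose by 0.56 (SE 0.15, adjusted p = 0.00894) and the phospholipid transfer protein gene PLTP by 0.54 (SE 0.12, adjusted p = 0.00317). The cholesterol esterifying enzyme gene LCAT fell by 0.43 (SE 0.15, adjusted p = 0.0386), a call that was lost under 8 alternatives, among them 5 of the 6 left-out libraries (all but shCtrl replicate 3), with values of -0.48 to -0.37. The other genes called in this list, named after their values were seen, were PON1, a paraoxonase of high-density lipoprotein, and CLU, clusterin, which rose, and APOM, which fell. PON1 had 16, 6 and 12 counts in shCtrl and 44, 34 and 29 in shMORC2, a rise of 1.63 (SE 0.38, adjusted p = 0.00436). PON1 passed the filter on low counts through its shMORC2 counts, so its rise is not read as a test. CLU rose by 0.34 (SE 0.12, adjusted p = 0.0342) and APOM fell by 0.32 (SE 0.10, adjusted p = 0.0212). APOH, beta-2-glycoprotein, was not called at -0.65 (SE 0.39, adjusted p = 0.201).

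Complement genes moved in both directions. Of 13 complement genes tested out of 20, 2 rose (15.4%) and 4 fell (30.8%), beside 19.9% and 19.6% over all genes. The median was -0.35, and 1 rose without shCtrl replicate 1, 2 or 3 or shMORC2 replicate 2 or 3. C3, the central component, had 625, 789 and 730 counts in shCtrl and 83, 246 and 267 in shMORC2. It fell by 1.85 (SE 0.29, edgeR adjusted p = 0.000260), and shMORC2 replicate 1 stood below the other two. C1S, a protease of the classical pathway, fell by 1.21 (SE 0.20, adjusted p = 0.000414) and C5, of the terminal pathway, by 0.68 (SE 0.14, adjusted p = 0.00172). The other 3 genes called, with few counts and named after their values were seen, were CFI, MASP2 and MASP1. CFI, the protease that cleaves activated C3, had 6, 12 and 12 counts in shCtrl and 32, 51 and 40 in shMORC2, and rose by 2.01 (SE 0.38, adjusted p = 0.00110). The lectin pathway protease genes MASP2 and MASP1 went opposite ways. MASP2 rose by 0.92 (SE 0.31, adjusted p = 0.0304). MASP1 fell from 14, 26 and 15 counts to 7, 7 and 0 (log2 fold change -1.96, SE 0.63, adjusted p = 0.0254). CFI passed the filter on low counts through its shMORC2 counts and MASP1 through its shCtrl counts. Their calls, and the shares that hold them, are therefore not read as a test.

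Of 36 carrier and acute phase genes, 12 were tested, with a median of -0.51. Of the 12, 0 rose and 5 fell (41.7%, beside 19.6% over all genes). All of the 5 but CP passed the filter on low counts through their shCtrl counts, so nothing is read from this share. CP, the copper carrier ceruloplasmin, fell by 0.45 (SE 0.15, edgeR adjusted p = 0.0314). That call was lost under 7 alternatives, among them without shCtrl replicates 2 or 3 or shMORC2 replicates 2 or 3, with values of -0.46 to -0.34. None was higher with DESeq2 or at an unadjusted p under 0.05 in edgeR (0 genes each), and without shCtrl replicate 1 the number that fell was 8.

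The other 4 carrier and acute phase genes called lower had few counts and are named because their values were seen. AMBP, which encodes alpha-1-microglobulin and bikunin, had 72, 104 and 86 counts in shCtrl and 10, 6 and 6 in shMORC2. It fell 12.1-fold in mean CPM (edgeR log2 fold change -3.57, SE 0.32, adjusted p = 3.1e-06). ITIH2, a heavy chain that is joined to bikunin, had 34, 34 and 36 counts in shCtrl and 0, 2 and 0 in shMORC2, which left 1.96% of the shCtrl level (95% exact interval 0.228% to 7.05%). VTN, the adhesion protein vitronectin, had 16, 30 and 14 against 6, 2 and 2 counts (-2.56, SE 0.56, adjusted p = 0.00287). AGT, angiotensinogen, had 41, 30 and 32 against 4, 6 and 8 counts (-2.50, SE 0.40, adjusted p = 0.000292). For all 4 the groups did not overlap, as for 25.1% of all genes tested that lay lower. Nothing is read from this, since the 4 are named for being called lower. They passed the filter on low counts through their shCtrl counts. RBP4, the retinol carrier, had 2, 6 and 18 counts in shCtrl and 2, 10 and 10 in shMORC2 and was not tested.

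Genes that load and move secreted cargo split. Of 29 tested out of 30, 8 rose (27.6%) and 7 fell (24.1%), beside 19.9% and 19.6% over all genes. The median was -0.08. Folding factors of the endoplasmic reticulum were among those that rose. PDIA4, a disulfide isomerase, rose by 0.87 (SE 0.08, edgeR adjusted p = 2.7e-06), CALR, the chaperone calreticulin, by 0.79 (SE 0.09, adjusted p = 2e-05) and HSPA5, the chaperone BiP, by 0.78 (SE 0.08, adjusted p = 6.7e-06). ACSL5, which activates fatty acids, rose by 1.02 (SE 0.10, adjusted p = 5.9e-06). Among the 7 that fell, named after their values were seen, were LMAN1, by 0.77 (SE 0.09, edgeR adjusted p = 1.9e-05), and MIA3, by 0.65 (SE 0.09, adjusted p = 7.0e-05). MTTP, which loads lipid onto the APOB protein, had 18, 18 and 22 counts in shCtrl and 7, 9 and 9 in shMORC2. It fell by 1.22 (SE 0.40, adjusted p = 0.0276), and passed the filter on low counts through its shCtrl counts. That call was lost under 8 alternatives, among them each of the 6 left-out libraries, with values of -1.30 to -1.08.

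Among receptors and partners of the secreted proteins, 23 of 28 were tested, of which 4 rose (17.4%) and 6 fell (26.1%). The median was -0.04, and the shares over all genes were 19.9% and 19.6%. With the replicate block 7 rose and 7 fell, and without shCtrl replicate 2 or shMORC2 replicate 3, 2 rose. TFRC, the receptor for transferrin, rose by 0.31 (SE 0.07, adjusted p = 0.00343), while the iron reductase gene STEAP3 fell by 0.61 (SE 0.08, adjusted p = 5.6e-05) and the iron transporter gene SLC11A2 by 0.59 (SE 0.11, adjusted p = 0.000786). TGM2, a transglutaminase that can crosslink fibrinogen, fell by 0.78 (SE 0.17, adjusted p = 0.00265).

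Regulators of liver genes were lower where they were called. Of 34 genes, 27 were tested, of which 0 rose and 11 fell, beside 19.6% called lower over all genes, with a median of -0.38. At an unadjusted p under 0.05 edgeR had 3 higher and 13 lower, DESeq2 called 0 higher and 9 lower, and with the replicate block 3 rose and 13 fell. Without shCtrl replicate 1, shCtrl replicate 3 or shMORC2 replicate 1, 1 rose. The C/EBP genes fell together, CEBPB by 1.38 (SE 0.15, edgeR adjusted p = 1.8e-05), CEBPD by 1.21 (SE 0.15, adjusted p = 4.7e-05) and CEBPA by 0.64 (SE 0.17, adjusted p = 0.00869). FOXA2 fell from 104.6 to 65.8 CPM, by 0.67 (SE 0.10, adjusted p = 0.000132), and FOXA3 by 0.84 (SE 0.18, adjusted p = 0.00298), while FOXA1 had at most 13 counts in any library.

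HNF4A, a nuclear receptor of liver and gut, was well counted and was not called. It had 68.6 ± 9.09 and 62.6 ± 5.15 CPM, a log2 fold difference of -0.13 (SE 0.10, adjusted p = 0.323), which became -0.24 (adjusted p = 0.0474) without shCtrl replicate 1. Of the known repressors of AFP after birth, ZBTB20 fell by 1.14 (SE 0.12, adjusted p = 1e-05). ZHX2 was not called at 0.31 (SE 0.13, adjusted p = 0.0776, and 0.0285 with the replicate block, also called at 0.0427 without shCtrl replicate 3). ZFHX3 was not called at -0.04 (SE 0.08, adjusted p = 0.705).

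Markers of other cell types were set beside these values, and their part in the results was not tested. Of 17 colon epithelium markers, all were counted, and their summed level ran from 20180 to 26230 CPM in shCtrl and from 19230 to 26130 CPM in shMORC2. The keratin genes KRT8, KRT18 and KRT19 made up 93.2% to 94.7% of that sum, and the other 14 markers together had 1352 to 1394 CPM in shCtrl and 1316 to 1514 CPM in shMORC2. Of 14 tested, 3 rose (21.4%) and 1 fell (7.14%), beside 19.9% and 19.6% over all genes. Without shMORC2 replicate 1 the number that rose was 6, and 2 fell without any 1 library other than shCtrl replicate 3. CEACAM5 fell by 1.08 (SE 0.23, edgeR adjusted p = 0.00265), KRT20 rose by 0.75 (SE 0.16, adjusted p = 0.00305), TFF3 by 0.63 (SE 0.09, adjusted p = 0.000161) and CDX2 by 0.47 (SE 0.14, adjusted p = 0.0158), the last not called without shCtrl replicate 2 or 3 or shMORC2 replicate 3 (0.31 to 0.43).

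The 22 hepatocyte markers were mostly enzyme genes, with some transporters and the receptor genes ASGR1 and ASGR2. Of them, 8 had at most 3 counts in every library, and 6 of these 8, CYP7A1 and G6PC included, had none. The summed level of the 22 ran from 9.36 to 12.9 CPM in shCtrl and from 10.5 to 17.9 CPM in shMORC2. Of the 8 tested, 3 rose (PCK1 by 1.14, FBP1 by 0.67 and ASGR1 by 0.66) and 2 fell, AGXT and ASGR2. These shares were 37.5% and 25.0%, beside 19.9% and 19.6% over all genes. AGXT passed the filter on low counts through its shCtrl counts. Without shCtrl replicate 1 or 3 or shMORC2 replicate 3, 1 rose, and without shMORC2 replicate 2, 0 rose, while 1 fell without shCtrl replicate 1 or 2 or shMORC2 replicate 2. PCK1 and ASGR1 were not called without shCtrl replicate 1 or 3 or shMORC2 replicate 2 or 3 (0.58 to 1.23 and 0.38 to 0.73), nor FBP1 without either replicate 2 (0.53 and 0.62).

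Of 18 enterocyte and yolk sac endoderm markers, 9 were tested, of which 0 rose and 4 fell (44.4%, beside 19.6% over all genes). The 4 include MTTP, which passed the filter on low counts through its shCtrl counts. With DESeq2, or at an unadjusted p under 0.05 in edgeR, 0 were higher. The summed level ran from 65.5 to 81.0 CPM in shCtrl and from 35.6 to 55.7 CPM in shMORC2. CREB3L3 alone averaged 49.3 CPM in shCtrl and 30.2 CPM in shMORC2. Without shCtrl replicate 2, 1 rose and 2 fell. FABP1, a fatty acid binding protein of enterocytes and hepatocytes, fell by 1.20 (SE 0.15, edgeR adjusted p = 5.2e-05), the stem cell receptor gene LGR5 by 1.10 (SE 0.28, adjusted p = 0.00647, a call lost in both limma fits), and CREB3L3, a regulator of apolipoprotein genes that is also among the liver regulators, by 0.71 (SE 0.21, adjusted p = 0.0156, a call lost under 4 alternatives, DESeq2 and both limma fits among them, and at -0.64 without shCtrl replicate 2). FABP2 and SI, which define mature enterocytes, were at 0 in all 6 libraries. Of 13 blood and stroma markers, 6 were tested and 2 rose (33.3%, beside 19.9% over all genes). CD68 rose by 1.27 (SE 0.20, edgeR adjusted p = 0.000296) and VWF by 0.54 (SE 0.17, adjusted p = 0.0238). VWF was not called without shCtrl replicate 1 or 2 or shMORC2 replicate 2 or 3 (0.45 to 0.55). HBB was at 0 in every library, and the summed level ran from 68.2 to 75.1 CPM in shCtrl and from 93.4 to 146 CPM in shMORC2, of which CD68 averaged 34.1 and 82.4 CPM. Without shCtrl replicate 1, 4 rose, and without shCtrl replicate 2 or shMORC2 replicate 2 or 3, 1 rose.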

How the data were processed

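RNA of 6 SW480 libraries, 3 shCtrl and 3 shMORC2, was analysed from tables the authors deposited. The authors deposited raw counts per gene for each library and RPKM values, which equalled counts divided by gene length and library total. Submitters' processing notes name Trimmomatic 0.36, STAR 2.5.3a, featureCounts of Subread 1.5.1, edgeR 3.12.1 and GRCh38, while the strand setting, the annotation release and the handling of molecular identifiers are not given in the sources used here. Splicing tables, and the comparison columns they hold, were not used here. Of 33621 symbols shared with GENCODE 44 on GRCh38, 99.7% overlapped their entry, and coordinates are those of the count table.

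Counts were filtered with filterByExpr, scaled by TMM and tested over 21005 genes with the quasi-likelihood test of edgeR 4.0.16 (R 4.3.3, group as the only term), with Benjamini-Hochberg adjustment over all of them. The standard error of a log2 fold change was derived from its size and p. Groups came from the sample titles. Same-numbered libraries deviated together (correlations of 0.215, 0.111 and 0.102 for replicates 1, 2 and 3), so the numbers were taken to pair libraries, on these values alone, and a fit with the replicate block was run. Alternatives were DESeq2 1.42.0, no TMM, other filters, limma 3.58.1 on log2(RPKM + 1) and log2(RPKM + 0.1), and each library left out. Scripts were tested on simulated data. Neighbours were genes within 250 kb spanning at most 5 Mb. Named genes were MORC2, the 10 genes, neighbours of the same family or changed by at least 1 on the log2 scale, up to 4 called genes per list with a mean of at least 50 counts, a set of known partners and regulators, and the 5 genes nearest to AFP and to APOB. Some genes that this rule names are not reported here. The 10 genes and all lists were chosen with earlier results of these data known.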

Additional observations from a re-analysis of the deposited data

How the results depend on the processing

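With log2 values from counts, the log2 ratio of means ran from -2.63 to -2.03 for ALB, from -5.58 to -3.92 for FGB (the latter from paired libraries, with counts below 3 raised to 3), from -2.36 to -1.19 for FGG and from 0.73 to 1.06 for FGA, and the smallest values for the lower genes came from limma on log2(RPKM + 1), which understates changes of low genes. Of the secreted proteins in the 4 lists, 18 fell with no filter on low counts against 11 with it, since more genes were then tested. Of the neighbours, 4 fell with limma on log2(RPKM + 1) and 4 on log2(RPKM + 0.1), against 8 with edgeR, and 3 to 8 with each library left out, and the cause was not tested. With the replicate number as a block, 5132 genes rose and 5155 fell, against 4185 and 4116 without it. MORC2 then had a log2 fold change of -0.63. Of the named genes outside the 10, ZHX2, SIK3 and KRT19 changed call. For KRT19 the edgeR adjusted p was 0.124 without the block and 0.000103 with it. ZFHX3 had the opposite sign without shMORC2 replicate 2 (0.0018), where the lowest was -0.12. DESeq2 called 3791 genes higher and 3705 lower, with 12779 genes left without an adjusted p. MORC2 ranged from -0.74 to -0.55 with each library left out. A library's floor of 3 counts was 0.0676 to 0.0729 CPM, and the mean of FGB in shMORC2 lay below it.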
